A study of Mus musculus with 4 samples.

Results

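The monocyte-attracting chemokines Ccl2, Ccl7, Ccl8 and Ccl12 and their receptor Ccr2 were taken by gene symbol from the deposited single-cell matrix of 4T1 tumours, as 5 of its 55450 genes. All 5 had a row, and all were counted over the 32133 of 33064 cell barcodes that had at least 300 genes and at most 15% mitochondrial UMIs. A UMI (unique molecular identifier) stands for 1 captured RNA molecule. 4T1 is a mouse mammary carcinoma line, and 1000000 cells per animal were placed in the flank of female BALB/c mice aged 6 to 8 weeks. The 2 samples of the PBS group came from mice given an intravenous injection of PBS on day 7, and the 1 sample of the TIOs+NIR3 group from mice given TIOs, the study's oncolytic particles made from frozen macrophages, on that day. In each group the tumour received near-infrared light for 5 min (980 nm, 1.0 W per cm2) on day 8 and again on days 9 and 10. Collection followed on day 13, and cells positive for the leukocyte antigen CD45 were sorted. For the remaining sample the labels gave 2 different treatments, so it stayed unassigned.

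The matrix marked its barcodes with 4 suffixes, here called libraries 1 to 4, and nothing in the sources used here tied a suffix to a sample. Treatments were therefore not compared, the libraries were not treated as replicates, and no p-value was computed. Intervals given below are 95% exact intervals and cover counting error only.

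In outline, chemotactic cytokines of the CC family bind receptors with 7 transmembrane helices on leukocytes and guide them along a gradient. Ccr2 is the receptor that lets inflammatory monocytes leave the bone marrow and enter inflamed tissue and tumours, where they can become macrophages. Ccl2 is its best-known ligand, Ccl7 also binds other CC receptors, Ccl12 is a mouse ligand of Ccr2, and mouse Ccl8 is known as a ligand of Ccr8 as well.

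The 4 ligand genes lay in 1 cluster on the plus strand of chromosome 11 (GRCm38). Ccl2 spanned 82035571 to 82037453, Ccl7 82045712 to 82047525, Ccl12 82101845 to 82103400 and Ccl8 82115185 to 82116799. From the start of Ccl2 to the end of Ccl8 the cluster measured 81229 bases and also held Ccl11, the eosinophil chemokine, between Ccl7 and Ccl12. Each ligand gene was protein-coding with 3 exons. Their longest transcripts shared runs of 11 to 23 identical bases with each other, the longest between Ccl2 and Ccl7. Ccr2 lay on the plus strand of chromosome 9, from 124101950 to 124113557.

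RefSeq (GRCm38.p6) gave windows before the annotated start for 3 of the 5 members, Ccl8, Ccl12 and Ccr2. For Ccr2 the RefSeq start lies after the gene start given above, so that most of its window (124101933 to 124102182) is inside the gene as GENCODE draws it. The windows of the 2 ligands, Ccl8 and Ccl12, are shown, each the 250 bases before the annotated start. Matches to TATAAA and to GAGGAA, a core read by PU.1 and other ETS factors, are in capitals (on the minus strand GAGGAA reads TTCCTC).
Ccl12, chr11:82101595-82101844, plus strand: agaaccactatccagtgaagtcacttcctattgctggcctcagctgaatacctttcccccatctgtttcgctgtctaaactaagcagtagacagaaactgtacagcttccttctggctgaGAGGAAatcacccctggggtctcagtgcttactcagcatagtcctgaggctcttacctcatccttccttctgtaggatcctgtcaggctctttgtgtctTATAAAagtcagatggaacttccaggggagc
Ccl8, chr11:82114935-82115184, plus strand: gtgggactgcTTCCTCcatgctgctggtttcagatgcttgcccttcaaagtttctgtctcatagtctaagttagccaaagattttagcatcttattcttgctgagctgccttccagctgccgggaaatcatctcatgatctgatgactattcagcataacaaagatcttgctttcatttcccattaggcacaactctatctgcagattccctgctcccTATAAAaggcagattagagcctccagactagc
Both held TATAAA on the plus strand, at position -31 in Ccl12 and -32 in Ccl8 counted from the start. GAGGAA stood at -130 on the plus strand of Ccl12 and at -240 on the minus strand of Ccl8, and the Ccr2 window held neither. Of 32851 mouse windows of the same length, searched on both strands, 12.4% held TATAAA and 23.3% held GAGGAA. The letters TGANTCA (AP-1), TTNNGCAA (C/EBP) and TTCNNNGAA (STAT) were in none of the 3 windows and in 6.75%, 9.56% and 7.02% of all windows, respectively. A longer NF-kB core was likewise in none of the 3 and in 1.41% of all windows.

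Cells were gated into classes by marker genes, none of which was a member. The gate named 26232 cells (81.6%). Of the 5901 ungated cells, 3477 had under 3 markers of their best class and 2424 led the next class by too little, and 1245 gated cells lay close above the limit on the lead. Although the tumours were sorted on CD45, 13.7% of kept cells were gated as stromal (3789 fibroblasts, 277 pericytes or smooth muscle cells and 325 endothelial cells) and 13.0% as tumour, epithelial or keratinocyte. Of the markers, 12 of 12 were detected and raised in macrophages, 8 of 9 in monocytes, 10 of 10 in fibroblasts and 9 of 10 in basophils or mast cells. The main immune classes were 7906 neutrophils, 3897 macrophages, 3188 monocytes and 1152 T cells. Only 33 B cells were found, and they were left out of the rankings. Library 1 stood apart, with 3777 of the 4058 tumour or epithelial cells, all 117 keratinocytes and 56 of the 3188 monocytes. Library 4 held 2576 of the monocytes. Median depth per kept cell ranged from 2641.5 UMIs (library 2) to 11698 UMIs (library 1), and 101 barcode sequences occurred in more than 1 library.

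Levels are given as counts per 1000000 UMIs summed over the same cells (CPM), and are compared between cell classes for 1 gene at a time. Over all kept cells Ccl2 was at 1417 CPM, Ccl7 at 915, Ccl8 at 620.0, Ccl12 at 191 and Ccr2 at 156. Together the 4 ligands reached 588 CPM in library 1 and 3816, 4465 and 4502 CPM in libraries 2, 3 and 4. Ccr2 reached 399 CPM in library 4, against 48.4, 90.4 and 65.4 CPM in libraries 1, 2 and 3. The makeup of the libraries moved with these totals, since library 1 held 182 of the 3789 fibroblasts and library 4 most of the monocytes. The ligands also differed between libraries inside a class. Together they were at 3427, 12952, 11814 and 12014 CPM in macrophages of libraries 1 to 4, and at 1993, 4749.9, 5421 and 2765 CPM in fibroblasts. The cause of these differences was not tested, and makeup and treatment cannot be told apart here.

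Ccl2, the main Ccr2 ligand, was high in 4 kinds of cell, in 2 stromal and 2 myeloid classes. Its pooled level was 2635 CPM (2599 to 2671) in pericytes or smooth muscle cells, 2501 (2492 to 2509.8) in fibroblasts, 2291 (2272 to 2309) in monocytes and 1792 (1777 to 1807) in macrophages. Basophils or mast cells followed at 1065 CPM, and every other class of 50 or more cells was at 551 CPM or below. Tumour or epithelial cells were lowest, at 78.1 CPM, but 3777 of these 4058 cells lay in library 1. In that library they were at 72.8 CPM, above T cells (53.2 CPM) and NK cells (34.3 CPM). In library 2 they were the lowest of 13 classes, at 114 CPM.

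The pooled order of the leading classes did not hold inside the libraries. Fibroblasts stood at 832, 2626, 3619.7 and 1539.6 CPM of Ccl2 in libraries 1 to 4. Pericytes or smooth muscle cells stood at 494, 1528 and 3326 CPM in libraries 1 to 3, the libraries with at least 20 such cells. Fibroblasts were thus above pericytes in each of the 3 libraries that held both, and the pooled lead of pericytes came with 141 of their 277 cells lying in library 3. Without library 3 the pericyte level was 1431 CPM and monocytes led at 2216. Monocytes ranged over 377, 1498, 3042 and 2279 CPM, and macrophages over 762, 1872, 2749 and 2498 CPM. Fibroblasts led in libraries 2 and 3, macrophages in library 4, and 20 basophils or mast cells at 1185 CPM in library 1. The library ranges of these 4 leading classes overlapped.

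By molecules over all libraries, fibroblasts were the main holders of Ccl2 among the kept cells. The tumours were sorted on CD45, so these shares describe the captured cells and not the tumour. They carried 58.8% of its UMIs and monocytes 11.7%, and the stromal classes as a whole held 63.3%. This stromal share was 79.3% and 79.5% in libraries 2 and 3, but 13.2% in library 1 and 39.1% in library 4. Fibroblasts were also the deepest cells, with a median of 28568 UMIs against 8023 in monocytes and 7033 in macrophages, which weighs on shares of molecules. CPM is taken per UMI, but inside a class its deeper cells count for more. With each cell thinned to 1000 UMIs fibroblasts were at 2188 CPM of Ccl2, against 2501. Within fibroblasts Ccl2 was spread widely: the cell at the 10th percentile had 1.38 Ccl2 UMIs per 10000 UMIs, the median cell 16.3 and the cell at the 90th percentile 50.4.

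Ccl7 followed much the same classes as Ccl2, with macrophages ahead of the stromal classes. Macrophages were at 2078 CPM (2062 to 2094), basophils or mast cells at 2009 (1873 to 2153), fibroblasts at 1438 (1431 to 1445), pericytes or smooth muscle cells at 1357 and monocytes at 1325. In macrophages the level was 716, 2600.1, 3144 and 2767 CPM in libraries 1 to 4, and without library 1 it was 2739 CPM. Macrophages led in libraries 2, 3 and 4.

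The 2nd place of basophils or mast cells rested on few cells. The class had 88 cells, and 9 of them held 75.7% of its 811 Ccl7 UMIs. Its level was 5084 CPM in the 20 cells of library 1, and 1683, 706 and 1270.4 CPM in libraries 2, 3 and 4. In library 1 a single cell gave 42.7% of the UMIs, and the level without that cell was 3107 CPM, still above the fibroblasts (945 CPM) and macrophages (716 CPM) of that library.

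As with Ccl2, most Ccl7 molecules over all libraries lay in fibroblasts, which held 52.4% of its UMIs, while macrophages held 19.8%. The fibroblast share was 18.9%, 67.6%, 65.2% and 34.1% in libraries 1 to 4, and in library 1 macrophages held 48.5%. Fibroblasts stood at 945, 1783, 1684 and 963 CPM in the 4 libraries. Pericytes or smooth muscle cells were at 279 and 328 CPM in libraries 1 and 2 and at 1946 CPM in library 3, so that their Ccl7 level in library 3 was above that of fibroblasts (1684 CPM).

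By CPM, Ccl8 was highest in macrophages in every library. Gated macrophages were at 4595 CPM (4571 to 4619) and held 64.5% of all Ccl8 UMIs, and their level was 7.20 times that of the next class, cDC1, at 638 CPM. By library the macrophage level was 1101, 7831, 5029 and 5466 CPM, and it was 6289 CPM without library 1. In no library did another class come above it. The cDC1 level rested on library 4, where 85 cells were at 1471 CPM and a single cell gave 54.0% of the UMIs, the other libraries being at 44.2 to 414 CPM.

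Outside macrophages Ccl8 was low in the stromal classes and uneven elsewhere. Fibroblasts had 218 CPM and, being many and deep, 11.7% of the Ccl8 UMIs. Pericytes or smooth muscle cells had 50.3 CPM, which sets them apart from their Ccl2 level. Keratinocytes, present in library 1 only, had 337 CPM. At equal depth 23.4% of them held a Ccl8 UMI, beside 21.3% of the macrophages and 4.80% of the T cells of that library. Endothelial cells reached 823 CPM in library 3, but 93.9% of these UMIs came from 1 cell and the level without it was 51.1 CPM.

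Ccl12 lay mainly in the mononuclear phagocytes. Macrophages were at 963 CPM (952 to 974) and monocytes at 726 (716 to 737), holding 43.9% and 27.5% of its UMIs. In libraries 1 to 4 the macrophage share was 62.7%, 76.7%, 33.5% and 34.2%, and the monocyte share 0.0293%, 3.99%, 29.6% and 39.5%. By level macrophages led in each of the 4 libraries, with 849, 648, 893 and 1283 CPM, while monocytes were at 13.6, 217, 600.2 and 777 CPM. The library ranges of the 2 classes overlapped. In Leiden clusters those named monocyte were at 179 and 1475 CPM of Ccl12, and those named macrophage at 736, 920.0 and 817 CPM. The order of the 2 classes thus depended on how cells were named. Fibroblasts, the main holders of Ccl2 and Ccl7 over all libraries, were at 22.9 CPM of Ccl12 and pericytes or smooth muscle cells at 5.82 CPM.

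Among dendritic cells Ccl12 moved with the library. In cDC1 it was at 605 CPM in library 4 and at 17.4 to 123 CPM in the others. In cDC2 it was at 419.7 CPM in library 1 and at 8.70 to 55.3 CPM in the others, and 1 cell of library 1 gave 55.7% of the UMIs there, leaving 194 CPM without it. Mature dendritic cells, which carry Ccr7 and Fscn1, were at 20.7 CPM, with 205 of their 257 cells in library 3. They were at 38.9 and 12.1 CPM in libraries 2 and 3, against 15.6 and 8.70 CPM in cDC2 and 17.4 and 53.7 CPM in cDC1. In library 2, 1 mature dendritic cell gave 70.0% of the UMIs of that class. Without the top cell of each class the levels in libraries 2 and 3 were 12.4 and 3.71 CPM in mature dendritic cells. They were then 13.2 and 2.24 CPM in cDC2 and 2.92 and 8.15 CPM in cDC1. At equal depth no dendritic class of libraries 2 and 3 had an interval above that of T cells, the background class. These levels were therefore read as background.

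**Figure D1:**
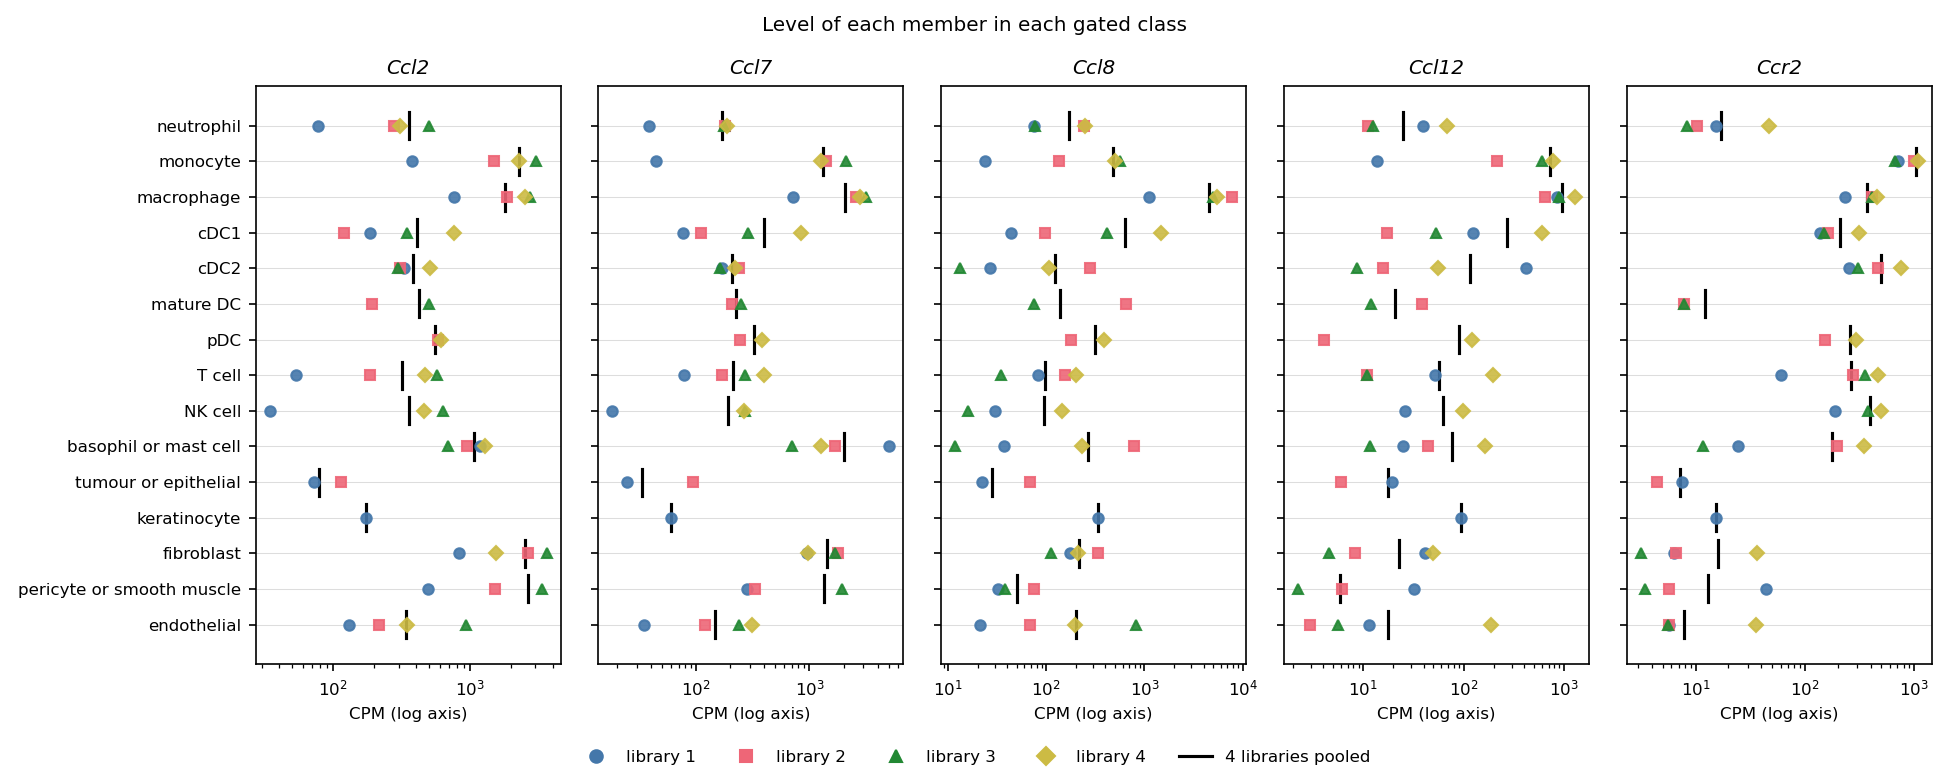
Level of each member in CPM (log axis) in 15 gated classes. Coloured points are the 4 libraries, drawn where the class had at least 20 cells and the level was above 0, and the black bar is the level over all cells of the class. Ccl8 points of macrophages lie right of all other classes in each library, while the Ccl2 points of fibroblasts, pericytes, monocytes and macrophages overlap.

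The mix of the 4 ligands separated stromal cells, monocytes and macrophages. Of the ligand UMIs of fibroblasts, 59.8% were Ccl2, 34.4% Ccl7, 5.21% Ccl8 and 0.547% Ccl12. Pericytes or smooth muscle cells had 65.1% Ccl2, 33.5% Ccl7, 1.24% Ccl8 and 0.144% Ccl12. Macrophages had 19.0% Ccl2, 22.0% Ccl7, 48.7% Ccl8 and 10.2% Ccl12. Over all libraries monocytes lay between, near fibroblasts in Ccl2 (47.5%) and with the largest Ccl12 share of these 4 classes (15.0%). Their Ccl12 share was 2.96%, 6.68%, 9.49% and 16.1% in libraries 1 to 4, against 24.8%, 5.01%, 7.56% and 10.7% in macrophages. In library 1, where monocytes held 135 ligand UMIs, the Ccl12 order thus turned, and 82.2% of those UMIs were Ccl2. The Ccl8 share of macrophages was 32.1%, 60.5%, 42.6% and 45.5% in libraries 1 to 4, above that of fibroblasts (8.81%, 7.00%, 2.09% and 7.70%) and of monocytes (5.19%, 4.19%, 9.01% and 10.4%) in each.

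**Figure D2:**
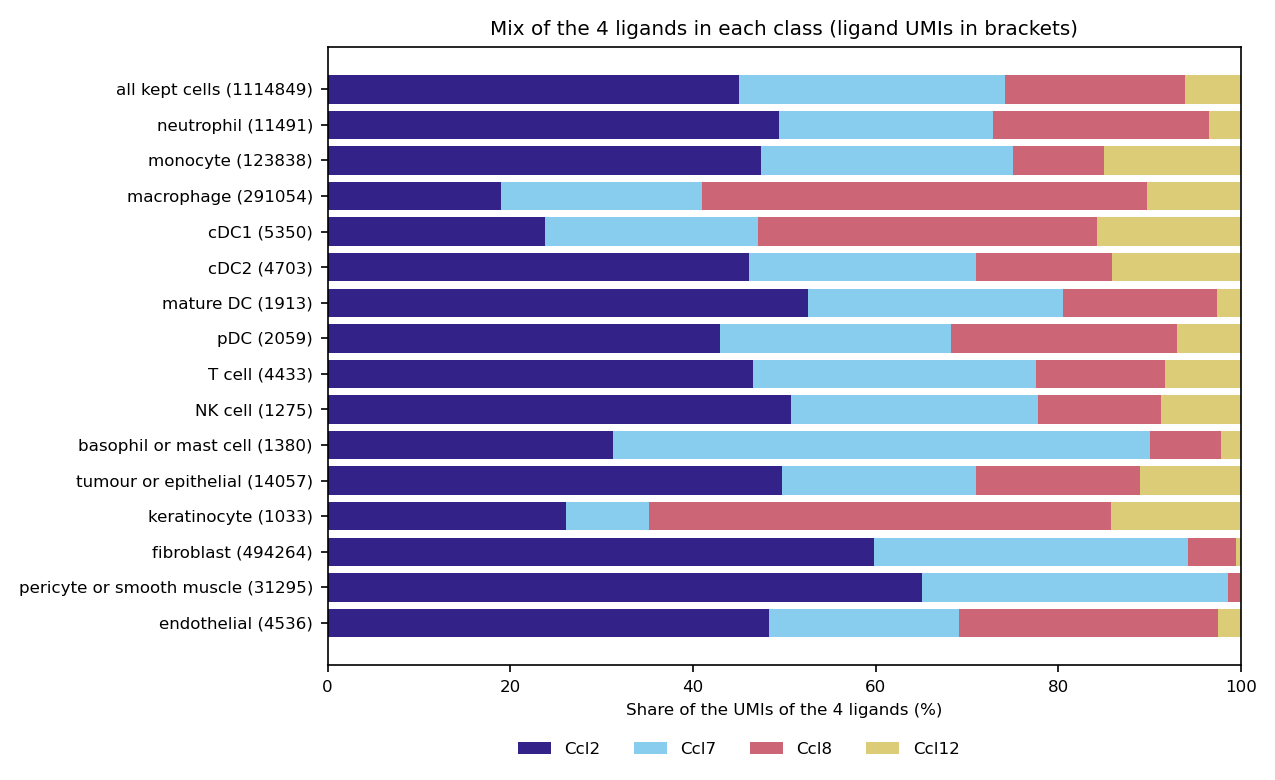
Share of each of the 4 ligands (%) among their UMIs in each class, with the number of ligand UMIs in brackets and all kept cells on top. Fibroblasts and pericytes are nearly all Ccl2 and Ccl7, and macrophages hold the widest Ccl8 band of the large classes (48.7%).

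A low level of ligand UMIs was found in all classes, including T cells, which were taken as the background class. Before thinning, 36.9% of T cells (median 3986.5 UMIs) held a Ccl2 UMI, 30.6% a Ccl7 UMI, 24.0% a Ccl8 UMI and 9.64% a Ccl12 UMI. When each cell was thinned to 1000 UMIs these shares were 12.9%, 9.84%, 7.62% and 1.95%. Levels in this range were read as background and not as expression.

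Fibroblasts (69.0%), monocytes (64.1%), macrophages (60.6%) and pericytes or smooth muscle cells (55.2%) were far above the background share of Ccl2 at equal depth, where 94.1%, 90.7%, 85.9% and 87.4% held a UMI before thinning. For Ccl7 the thinned shares were 58.8% in fibroblasts, 58.0% in macrophages, 37.5% in monocytes and 36.5% in pericytes. Macrophages alone exceeded 25% for Ccl8 (50.7%), and for Ccl12 macrophages (38.5%) and monocytes (24.3%) were the highest. Within single libraries the classes whose intervals lay above that of T cells were fewer. For Ccl8 they were macrophages in all 4 libraries, fibroblasts in libraries 1, 2 and 3 and keratinocytes in library 1. For Ccl12 they were macrophages in all 4, monocytes in libraries 3 and 4, cDC2 in library 1 and cDC1 in library 4.

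Neutrophils, the largest class, resembled T cells. Their thinned shares were 19.2% for Ccl2, 13.7% for Ccl7, 14.2% for Ccl8 and 2.71% for Ccl12, and their pooled intervals lay above the T cell intervals for the first 3 ligands but in none of the 4 libraries taken apart. The mix of ligands in both classes followed the library. In library 3 Ccl8 made up 6.78% of all ligand UMIs, 10.1% of those in neutrophils and 3.87% of those in T cells. In library 2 the Ccl8 shares were 26.1%, 34.2% and 29.8%, respectively. For comparison, macrophages of these libraries had 42.6% and 60.5%. Tumour or epithelial cells, with a median of 19545 UMIs, had the lowest pooled shares of Ccl2 (5.66%), Ccl7 (2.58%) and Ccl8 (2.65%) at equal depth, and 1.53% for Ccl12. Library 1 held 3777 of these 4058 cells, and there they were not clearly lowest. Their Ccl2 share in it was 5.49%, against 5.05% in T cells and 3.23% in NK cells. For Ccl7 they had 2.23% against 1.61% in NK cells, and for Ccl8 2.21% against 2.04% in cDC2. The NK cells (62) and cDC2 (98) of library 1 were few, and their intervals overlapped those of tumour or epithelial cells. For Ccl8 the interval of tumour or epithelial cells lay below that of T cells (4.80%) in library 1. In library 2 they had the lowest CPM of 13 classes for Ccl2 (114) and Ccl7 (94.6).

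**Figure D3:**
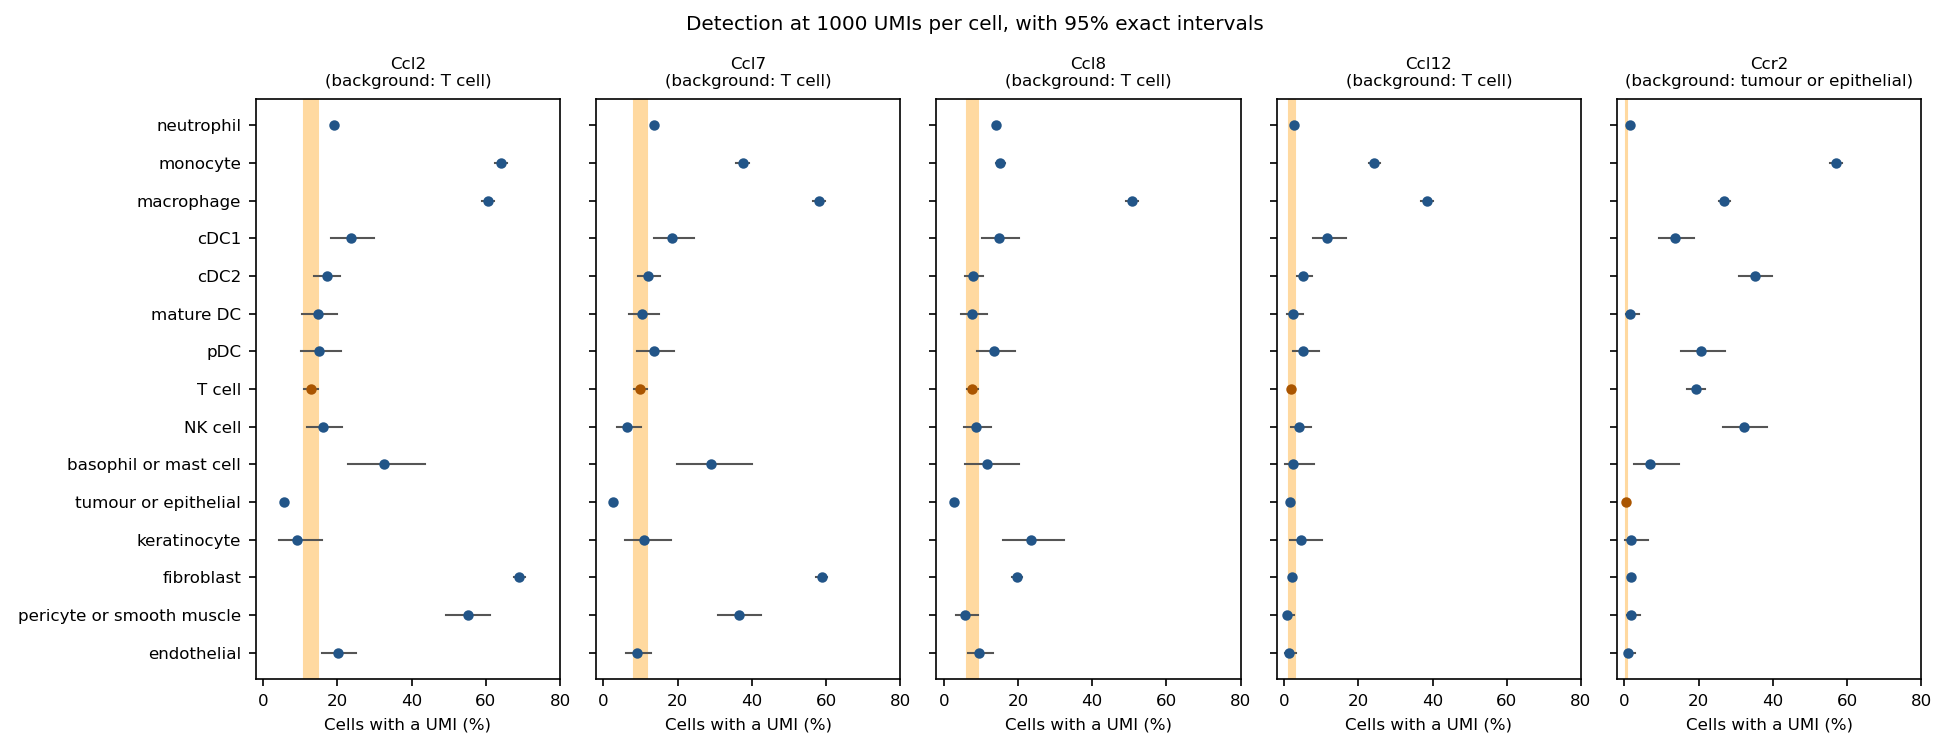
Share of cells (%) with at least 1 UMI of each member after each cell was thinned to 1000 UMIs, by class, with 95% exact intervals. The orange band is the interval of the background class (T cells for the ligands, tumour or epithelial cells for Ccr2), and neutrophils sit close to it for all 4 ligands while macrophages, monocytes and fibroblasts stand well to the right of it for Ccl2 and Ccl7.

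The receptor Ccr2 was highest in monocytes in each library. Its level there was 1034 CPM (1021 to 1046) over all cells and 719.9, 999, 662 and 1079.6 CPM in libraries 1 to 4. Over all libraries monocytes held 47.8% of Ccr2 UMIs and macrophages 20.7%, with 2576 of the 3188 monocytes in library 4. The macrophage share was 44.4%, 42.9%, 16.2% and 13.7% in libraries 1 to 4. The monocyte share was 4.04% in library 1, 34.1% in library 3 and 61.5% in library 4. Macrophages thus held more Ccr2 UMIs than monocytes in libraries 1 and 2, and fewer in libraries 3 and 4. The class cDC2, dendritic cells that take up antigen for CD4 T cells, came next with 494 CPM (476 to 512). In the pooled order it was followed by NK cells (398), macrophages (371), T cells (262), plasmacytoid dendritic cells (259) and cDC1 (210.2). Inside the libraries NK cells were above macrophages in 1 of 3, and plasmacytoid dendritic cells were above cDC1 in 0 of 2. The library ranges of monocytes and cDC2 overlapped, since cDC2 of library 4 (754 CPM) were above monocytes of library 3, yet monocytes were above cDC2 in 4 of 4 libraries.

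Detection of Ccr2 was also compared at equal depth. At 1000 UMIs per cell 57.0% of monocytes (55.3 to 58.7) held a Ccr2 UMI, against 0.551% of tumour or epithelial cells (0.346 to 0.833). Before thinning the shares were 93.2% (median 8023 UMIs) and 8.16% (median 19545 UMIs). Thinned shares were 35.2% in cDC2, 32.3% in NK cells, 26.9% in macrophages, 20.7% in plasmacytoid dendritic cells, 19.2% in T cells and 13.5% in cDC1. Mature dendritic cells stood out among the dendritic classes, with 12.3 CPM of Ccr2 and 1.60% of cells at equal depth. Basophils or mast cells had 178 CPM of Ccr2 and 6.98% of cells (2.60 to 14.6), an interval that overlapped that of cDC1, and their level ran from 11.8 CPM in library 3 to 346 CPM in library 4. Neutrophils (1.38%, 1.13 to 1.67) and fibroblasts (1.67%, 1.29 to 2.14) were low, though their intervals over all libraries lay above that of tumour or epithelial cells. Of the 4058 tumour or epithelial cells, however, 3777 lay in library 1 and 280 in library 2. Inside libraries 1 and 2 neither neutrophils nor fibroblasts had an interval above that of tumour or epithelial cells. Library 4, with 1 tumour or epithelial cell, had the highest Ccr2 shares of neutrophils (3.50%) and fibroblasts (3.98%).

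Ccr2 of lymphocytes varied more between libraries than that of monocytes. T cells were at 60.7, 274, 358 and 472 CPM in libraries 1 to 4. NK cells were at 189.6, 376 and 500.3 CPM in libraries 1, 3 and 4. Macrophages were at 231, 415, 413 and 459 CPM. In each of these classes library 1 was lowest.

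The cells gated as monocytes in library 1 carried the receptor with little ligand. These 56 cells had 719.9 CPM of Ccr2 but 377 CPM of Ccl2, 44.1 of Ccl7, 23.8 of Ccl8 and 13.6 of Ccl12, each of the 4 ligand values being the lowest among the monocytes of the 4 libraries. None of them held a Ccl7 UMI after thinning, whereas 38.5%, 41.8% and 37.7% of monocytes in libraries 2, 3 and 4 did. The identity of these 56 cells is less sure, since 50 held no UMI of Chil3, a marker of the monocyte gate. The Leiden clusters named monocyte held only 22 and 4 cells of library 1, so part of the 56 lay elsewhere.

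Splitting the classes by a UMI of 1 further gene, a description, showed which macrophages held Ccl8. The 1336 macrophages with a UMI of Cd163, the haemoglobin-haptoglobin scavenger receptor and 1 of the 12 markers of the gate, had 9240.1 CPM of Ccl8, and the other 2561 had 2482 CPM. The Cd163-positive cells were higher in each library, with 8414 against 909.5 CPM in library 1, 11876 against 3785 in library 2, 8129.7 against 2690 in library 3 and 7402 against 4044 in library 4. They held 40.5% of all Ccl8 UMIs of the series. In library 1 only 25 of 972 macrophages had a Cd163 UMI.

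Ccl12 shared this direction and Ccl2 did not. Ccl12 was at 1517, 741, 1218 and 1371 CPM in Cd163-positive macrophages of libraries 1 to 4 and at 831, 556, 647 and 1219 CPM in the others. Ccl2 seemed higher in Cd163-positive cells when libraries were pooled (2005 against 1696 CPM). Inside the libraries it was lower in libraries 2, 3 and 4 (1693 against 2052, 2459 against 2968 and 2243 against 2686 CPM) and within counting error in library 1 (759 against 762 CPM). The pooled direction was thus not seen inside the libraries. Ccl7 was likewise lower in Cd163-positive cells of libraries 2, 3 and 4 and higher in library 1 (1435 against 697 CPM), and Ccr2 was mixed.

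**Figure D4:**
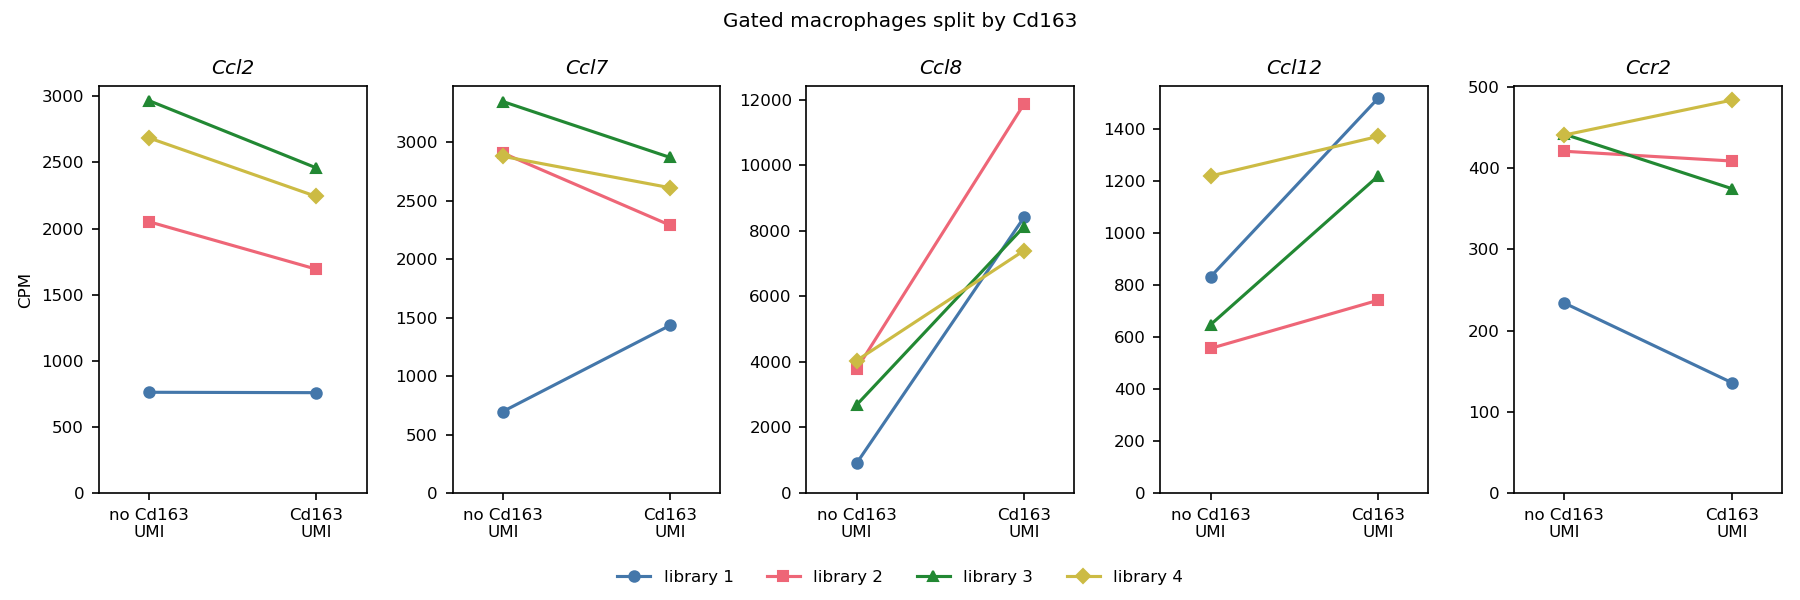
Level of each member (CPM, axes from 0) in macrophages without and with a Cd163 UMI, 1 line per library. Ccl8 and Ccl12 rise from left to right in all 4 libraries, and Ccl2 falls in libraries 2, 3 and 4.

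Among monocytes, those with a UMI of Chil3, a chitinase-like protein of recently arrived monocytes, had similar Ccr2 to those without (1036 and 1029 CPM) and more Ccl2 (2453 against 1992 CPM) and Ccl7 (1441 against 1111 CPM). Ccl2 and Ccl7 were higher with Chil3 in each of the 3 libraries that had 20 cells of both kinds. Among fibroblasts, cells with Dpt, a marker of universal fibroblasts, and no Lrrc15, a marker of tumour myofibroblasts, had 2693 CPM of Ccl2 and those with Lrrc15 had 2169.7 CPM. This order held in libraries 2, 3 and 4 (2807 against 2509.5, 3772 against 3292 and 1737 against 1016 CPM), and Ccl7 followed it (1981 against 1668, 1818 against 1501 and 1089 against 655 CPM). Neutrophils with and without Retnlg, a granule-stage marker, differed little in Ccl2 (389 and 334 CPM). Like Cd163, the genes Chil3, Dpt, Lrrc15 and Retnlg were markers of their class's gate. Cells without them passed the gate on other markers, so these splits are not independent of the gate.

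The ligands occurred together in single cells. At 1000 UMIs per cell 67.8% of fibroblasts with a Ccl2 UMI also held a Ccl7 UMI, against 38.6% of fibroblasts without. In macrophages these shares were 71.1% and 37.8%, and in monocytes 47.8% and 19.1%. The share was higher with Ccl2 in all 4 libraries for fibroblasts and macrophages and in the 3 libraries with enough monocytes. In neutrophils, where the ligands were near background, Ccl7 was found in 14.9% of cells with and 13.5% of cells without Ccl2. Any of the 4 ligands was found in 87.3% of macrophages, 85.0% of fibroblasts, 76.1% of monocytes and 26.5% of T cells, and all 4 together in 13.3% of macrophages and 0.405% of fibroblasts.

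How often Ccr2 was found beside a ligand depended on the ligand and the class. In monocytes it was found in 57.0% of cells with Ccl2 and 57.1% of cells without, and in 53.3% of cells with and 59.2% of cells without Ccl7, an order that held in libraries 3 and 4 and turned in library 2 (62.7% against 55.8%). For Ccl7 the monocyte intervals overlapped in libraries 2 and 3. With Ccl12 the monocyte shares were 53.0% (49.4 to 56.6) and 58.3% (56.3 to 60.3), so that the pooled intervals overlapped. The order was the same in libraries 3 and 4, which had enough cells. In macrophages over all libraries Ccr2 was more frequent in cells with Ccl2 (28.8% against 24.1%) and with Ccl7 (29.1% against 24.0%), but inside each library the intervals overlapped, and in library 3 both orders turned. With Ccl8, macrophage Ccr2 was less frequent, at 23.2% (21.4 to 25.2) against 30.7% (28.6 to 32.9). The direction was the same in the 4 libraries, with 9.74% against 22.0% in library 1, 22.5% against 36.9% in library 2, 23.7% against 31.1% in library 3 and 27.4% against 37.3% in library 4, and the intervals overlapped in library 3 alone. Ccl12, in contrast, was more frequent in macrophages with Ccl8, at 51.3% against 35.6%, 33.3% against 19.6%, 42.6% against 24.4% and 54.1% against 41.0% in libraries 1 to 4. Receptor and at least 1 ligand were found together in 43.0% of monocytes and 24.5% of macrophages, and in 6.29% of T cells, whose ligand UMIs were read as background. Taken singly, a ligand was found in 76.1% and Ccr2 in 57.0% of monocytes, and in 87.3% and 26.9% of macrophages.

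**Figure D5:**
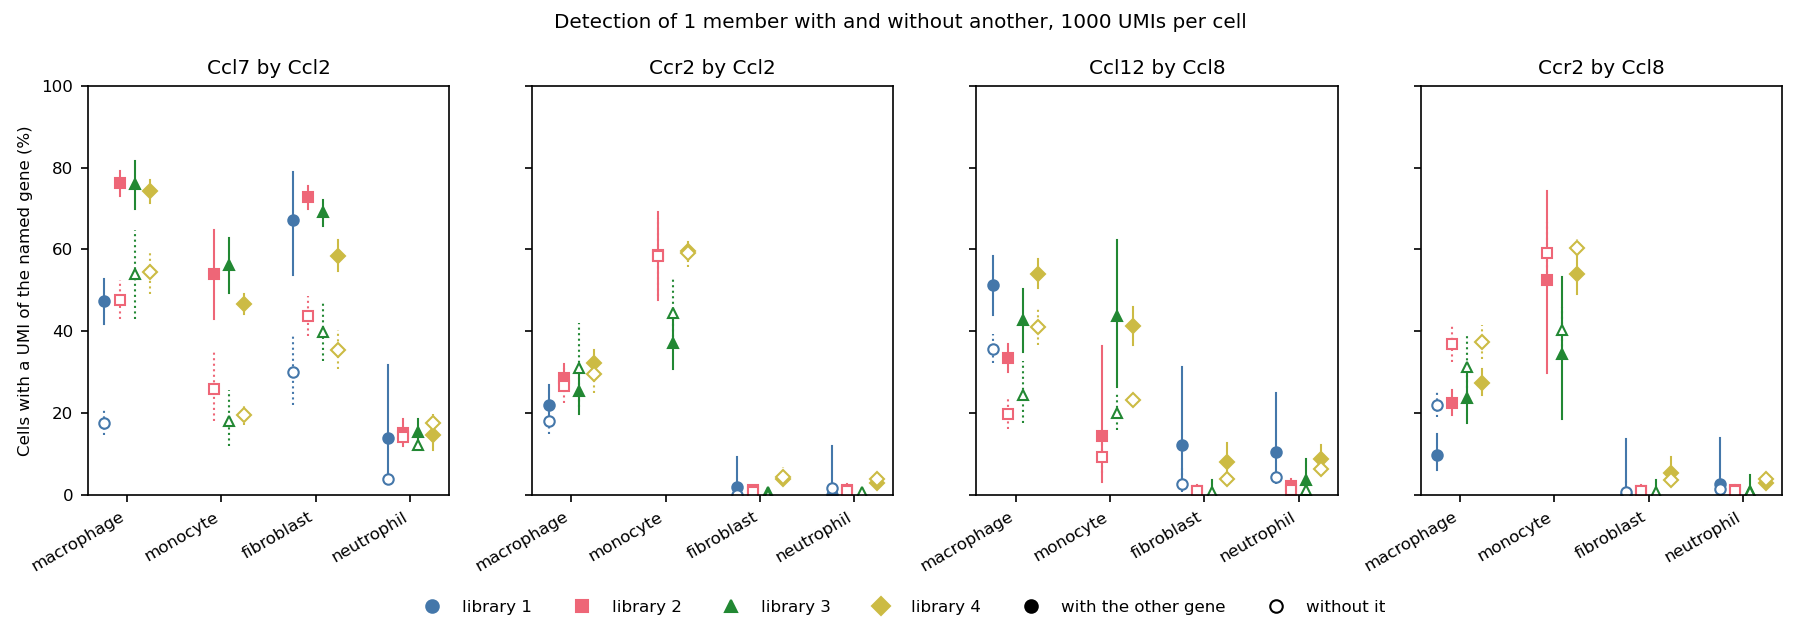
Share of cells (%) with a UMI of 1 member among cells with (filled) and without (open) a UMI of another, at 1000 UMIs per cell, by class and library with 95% exact intervals. Filled points lie above open points for Ccl7 by Ccl2 in macrophages, monocytes and fibroblasts, and below them for Ccr2 by Ccl8 in macrophages.

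The share of a class's UMIs in its top cells also differed between members. Cells were ranked by the gene itself and levels were not matched, so a sparse gene can look uneven by sampling alone. The top 10% of monocytes held 82.3% of the Ccl8 UMIs of that class but 22.0% of its Ccr2 UMIs. The median monocyte had 0.967 Ccl8 and 9.08 Ccr2 UMIs per 10000 UMIs. The top 10% of macrophages held 58.9% of their Ccl8 and 38.4% of their Ccl2 UMIs, and that of fibroblasts 33.3% of their Ccl2 and 28.8% of their Ccl7 UMIs. The most loaded cell of the series held 1343 Ccl8 UMIs.

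A list of 32 other genes of the chemokine network was read in the same cells. Of these, 9 were highest in neutrophils, 4 each in monocytes, mature dendritic cells and basophils or mast cells, and 1 in fibroblasts. In the ligand cluster, Ccl11 resembled Ccl2 and Ccl7 in its stromal source, with 218 CPM in fibroblasts (89.7% of its UMIs) and 161 CPM in pericytes. Fibroblasts led Ccl11 in 3 of 4 libraries. Unlike Ccl2 and Ccl7 it was low in macrophages (5.73 CPM) and monocytes (3.78 CPM). Ccl1, a ligand of Ccr8, was at 49.0 CPM in T cells and led there in 4 of 4 libraries.

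The other receptors for these ligands were spread over further classes. Ccr1, which also binds Ccl7, was at 1093 CPM in neutrophils and 351 CPM in monocytes, with neutrophils ahead in all 4 libraries. Ccr8 was scarce, with 44 UMIs in all kept cells and 5.88 CPM (4.16 to 8.07) in T cells, which held 86.4% of them. Ccr3, the eosinophil receptor, had 294 UMIs. Ackr1, which carries chemokines across venular endothelium, was at 89.8 CPM in endothelial cells and led there in 4 of 4 libraries. Ackr2, the scavenger of inflammatory CC chemokines, was scarce, with 288 of its 337 UMIs in fibroblasts (2.44 CPM) and 25 in endothelial cells (3.87 CPM, 2.50 to 5.71), which led in 2 of 4 libraries. Ccrl2 was at 4673 CPM in neutrophils and 564 CPM in mature dendritic cells.

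Tnf and Il1b, known inducers of Ccl2, were highest outside its leading classes. Tnf was at 1401 CPM and Il1b at 14625 CPM in neutrophils, ahead in 4 of 4 libraries. Il6, another inducer, was at 686 CPM in basophils or mast cells, 279 in pericytes and 209.7 in fibroblasts. Of its 30891 UMIs, fibroblasts held 24799 and basophils or mast cells 277. Among partners of monocyte entry and survival, the integrin gene Itgam was highest in monocytes (595 CPM) in each library, and Csf1r, the receptor for the macrophage growth factor, was highest in macrophages (394 CPM) in each. Its ligand Csf1 was at 658 CPM in neutrophils and 296 in fibroblasts. Over all libraries Vcam1 was at 206 CPM in pericytes, 129 in endothelial cells and 95.1 in fibroblasts. Pericytes led it in library 3 only, endothelial cells in library 1 and fibroblasts in libraries 2 and 4.

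The genes most like each member were found over 49 pairs of a class and a library with at least 20 cells, as Pearson's r of log2(CPM + 10) among 8658 genes. These are descriptions, since the pairs share libraries, depth and free RNA. Ccl2 and Ccl7 were each other's closest gene (r = 0.90). After Ccl7 the closest to Ccl2 were Gstm1 (0.80), Colec12 (0.79), Selenbp1 and Pdpn (0.76 each), Pdpn being a marker used for the fibroblast gate. After Ccl2 the closest to Ccl7 were Dtnbp1 (0.82), Ier3ip1 (0.76), Glul (0.74) and Gstm1 (0.70). Ccl8 was closest to Folr2 (0.86), a folate receptor of tissue macrophages, and to Cbr2 (0.85), Selenop (0.81), the lysosomal protease gene Lgmn (0.80) and Ms4a7 (0.79). For Ccl12 the closest were Trem2 and Apoe (0.89 each), Apobec1 (0.88) and Ms4a7 (0.87), of which all but Apobec1 were markers of the macrophage gate. Ccr2 was closest to Ms4a6b (0.92), Fermt3 and Pycard (0.88 each) and AI662270 (0.87). Between members, Ccl8 and Ccl12 had r = 0.66, Ccl12 and Ccr2 0.57, and Ccl2 and Ccr2 0.17.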

How the data were processed

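The data were 1 matrix of deposited UMI counts per gene and cell barcode, made by the authors with Cell Ranger from 10x Genomics libraries and not normalised. The version was 6.1.2 per the file headers, 3.0.2 in the study's methods and 2.1.1 in the submitters' processing notes, which name the build mm10. All 55450 gene identifiers were found in GENCODE vM21 (GRCm38). The stated filter (at least 300 genes, at most 15% mitochondrial counts) left 32133 cells here, and the study's design text gives 15603. Total counts per library were 69255999 to 108646352.

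Each cell got, per class, the mean z-score of log2(1 + counts per 10000) over that class's markers, and took the best class if at least 3 markers were detected and the lead was at least 0.2. Of gated cells in a named Leiden cluster, 95.4% had the same name. The members, lists and markers were chosen with earlier results of these data known, and the gate's limits with the data in view. Doublets were kept, since the automatic limit of Scrublet marked almost no cell in libraries 2 and 3, and removal of the highest 5% of Scrublet scores was an alternative. CPM took exact Poisson intervals and shares exact Clopper-Pearson intervals. To compare shares, each cell was thinned to 1000 UMIs and shallower cells were left out (449 neutrophils and 184 macrophages, for example). Classes of under 50 cells were not ranked, and a library's class needed 20 cells. Named genes were the members, the fixed pathway list, the markers and, per member, the 5 genes of highest Pearson r among those at 10 CPM or more. Some of the genes this rule names are not reported here. Scripts were tested on simulated data. Python 3.11.15, numpy 2.4.6, scipy 1.17.1, scanpy 1.11.5, igraph 0.11.9 and matplotlib 3.10.9 were used.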

Additional observations from a re-analysis of the deposited data

How the results depend on the processing

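The level of each member in its leading class was recomputed under 13 alternatives, and a value was taken as moved when it left the main 95% counting interval. No value changed by over 1.5 times except that of Ccl2. Without library 3 Ccl2 in pericytes was 1431 CPM, and as the median over libraries it was 1528 CPM, against 2635. Ccl8 stayed highest in macrophages and Ccr2 in monocytes under all 13. Ccl2 kept its leading class under 8, Ccl7 under 8 and Ccl12 under 12. Fibroblasts led Ccl2 by the mean of single-cell CPM (2210.0), after thinning (2188) and without library 4 (3035), macrophages by the median over libraries (2185) and monocytes without library 3 (2216). Basophils or mast cells led Ccl7 with 4 detected markers (2281), without the highest doublet scores (2322) and without library 2, 3 or 4 (2104, 2357 and 2434). Monocytes led Ccl12 with Leiden clusters (879.9).

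With Leiden clusters the values were 2993 CPM for Ccl2, 1916 for Ccl7, 3719 for Ccl8, 844 for Ccl12 and 1019 for Ccr2. Without the highest 5% of doublet scores they were 2706, 2095, 4639, 976 and 1049.8. As the mean of single-cell CPM they were 2157, 2134, 5551, 899.6 and 1008. As the median over libraries they were 1528, 2684, 5247, 871 and 859.6. After thinning they were 2169.7, 2192, 5566, 913 and 978. Leaving out each library in turn gave 1431 to 3095 CPM for Ccl2, 1672 to 2739 for Ccl7, 3544 to 6289 for Ccl8, 775 to 1066 for Ccl12 and 771 to 1071 for Ccr2. Other filters on cells kept every value inside its interval. The cause of these shifts was not tested. No paired analysis was possible because the barcode suffixes carry no sample or replicate number and no test was run. Depth limits shares of cells with a UMI most in neutrophils, whose median was 1820 UMIs.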

Other observations

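Barcodes and cells outside the gated classes also held the members. The 931 barcodes removed by the filter had 1174 CPM of Ccl8, against 620.0 CPM in kept cells, whereas Ccl2 was lower in them (380.3 against 1417 CPM). Ungated cells held 9.69% of the Ccl2, 10.2% of the Ccl7, 12.8% of the Ccl8, 17.9% of the Ccl12 and 14.6% of the Ccr2 UMIs, being 18.4% of kept cells. The 33 gated B cells held no Ccl12 and no Ccr2 UMI, and a count of 0 there allows up to 20.6 CPM by the limit of 3 counts over the class, or 25.3 CPM by the upper bound of the exact interval.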
